A study of Mus musculus with 48 samples.

Results

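Skeletal muscle of mice given perfluorooctane sulfonate (PFOS) at 10 mg/kg/day was compared with that of mice given 1 mg/kg/day. The comparison took every library at either dose, 31 of the 48 in the series, and no undosed mouse. Libraries were assigned by the dose that ends their name and held apart by genotype and sex, which makes 4 strata. Of the 15 mice at 10 mg/kg/day, 8 were hCYP2B6-Tg, 4 of each sex, and 7 were Cyp2b-null, 4 of them female and 3 male. At 1 mg/kg/day there were 16 mice, 4 in each stratum. The transgene of hCYP2B6-Tg mice is human CYP2B6, a cytochrome P450, and in Cyp2b-null mice genes of the mouse Cyp2b family are deleted. All 31 mice received PFOS by oral gavage for 21 days. The sources used here give neither the promoter of the transgene nor the age of the mice or the vehicle. The gastrocnemius, a mostly fast-twitch muscle of the calf, gave 1 messenger RNA library per mouse, and the authors counted reads per gene. Levels below are CPM, counts scaled to a common library size by TMM factors, which do not compare genes of different length with each other. A gene is said to have risen, fallen or passed where edgeR's quasi-likelihood test gave an adjusted p under 0.05 over all genes tested. Differences are log2 fold changes of 10 over 1 mg/kg/day with their standard error.

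Mitochondria of muscle oxidise pyruvate and fatty acids through the tricarboxylic acid (TCA) cycle, and pass the electrons along respiratory complexes I to IV to build the gradient that complex V uses to make ATP. Their proteins come from nuclear genes, many under the coactivator PGC-1alpha, the estrogen-related receptors and the factor NRF1, and from a small set of genes in mitochondrial DNA. Muscle that loses mass breaks down protein through the proteasome and the lysosome, a programme that FOXO factors and glucocorticoids switch on and insulin signalling holds down. PFOS is a persistent fluorinated surfactant with the shape of a fatty acid, and it can activate the lipid-sensing receptor PPARalpha in liver.

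Total counts per library were 12401453 to 19921061. The labelled sex was borne out in 31 of 31 libraries, and muscle fibre markers summed to at least 82430 CPM in every library. The labels' extraction text names liver, but their tissue field names gastrocnemius. Liver markers summed to 3.41 to 113.8 CPM at 10 mg/kg/day and 0.720 to 4160 CPM at 1 mg/kg/day, where 1 library of Cyp2b-null males held 27859 counts of albumin (Alb). Glycam1, a mucin of lymph node vessels, had over 30 counts in 4 libraries at 10 mg/kg/day, 1 in each stratum. These 5 libraries stand apart, and results that rest on them are given with and without them. Transcripts of the mitochondrial genome took 7.66 ± 1.27% of counts in the 15 mice at 10 mg/kg/day and 10.0 ± 1.25% in the 16 at 1 mg/kg/day (mean ± SD, as throughout), and the difference was -2.37 percentage points (two-sided permutation test within strata, p = 1e-05, the smallest that 100000 permutations can give, 4e-05 adjusted over 4 library measures). The 20 most abundant genes took 31.2 ± 2.96% of counts at 10 mg/kg/day and 36.3 ± 1.35% at 1 mg/kg/day (n = 15 and 16, permutation p = 2e-05, adjusted 4e-05). Genes with at least 1 count numbered 20281 ± 711 at 10 mg/kg/day and 19386 ± 794 at 1 mg/kg/day (n = 15 and 16, permutation p = 0.00465, adjusted 0.0062), while total counts averaged 15272758 at 10 mg/kg/day and 14340441 at 1 mg/kg/day (permutation p = 0.104). In every stratum the library numbers of the labels were higher at 10 than at 1 mg/kg/day without overlap, so the numbering and dose cannot be told apart.

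The 10-fold step in dose went with a broad change of the muscle transcriptome. Of 15370 genes tested, 6883 (44.8%) passed, 3690 higher (24%) and 3193 lower (20.8%). Among them 574 were at least 2-fold higher and 319 at least 2-fold lower, and the median over all genes was 0.05. The direction was the same in all 4 strata for 5965 of the 6883 (86.7%). The levels of the dose groups did not overlap for 151 genes: in 93 (0.605%) all 15 mice at 10 mg/kg/day were below all 16 at 1 mg/kg/day, and in 58 (0.377%) all were above. With library totals in place of scaled sizes the median over all genes moved to 0.254, and 7028 genes were higher and 1486 lower (82.5% higher, against 53.6% on scaled sizes). Without the 5 libraries that stand apart 5503 of 15343 genes passed, 5274 of them shared with the full set. Mice at 10 mg/kg/day also differed more from each other: the spread within strata was larger at 10 than at 1 mg/kg/day in 10437 genes (67.9%), with a median SD of 0.322 at 10 mg/kg/day and 0.253 at 1 mg/kg/day on the log2 scale. The low dose itself gave no gene past the threshold against undosed mice (0 of 14464, 0%, edgeR). There 707 genes (4.89%) had an unadjusted p under 0.05, and DESeq2 called 1.

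Genes of the respiratory chain fell together, in the nuclear and in the mitochondrial genome. Of 36 nuclear genes of complex I, which takes electrons from NADH, 34 fell and none rose, with a median log2 fold change of -0.53. All 14 genes of complexes II and III and cytochrome c fell (median -0.55), as did 10 of 14 of complex IV (median -0.47) and 14 of 15 of complex V (median -0.48). Among the 13 proteins encoded in mitochondrial DNA 12 fell, with a median of -0.59, and only mt-Nd3 missed the threshold (-0.46, adjusted p = 0.206). Within complex IV Cox8a, the subunit of tissues other than heart and skeletal muscle, rose by 0.45, but no gene of the complex rose without the libraries that stand apart or with the mean level of adipocyte markers as a covariate, and Cox6a1 (0.22) and Cox6a2 (0.02) did not pass. Cox7a1, the subunit of heart and skeletal muscle, fell the most in complex IV, to 39.3 ± 14.9 CPM at 10 mg/kg/day, against 90.1 ± 17.1 CPM at 1 mg/kg/day (-1.20 ± 0.15). In a bulk sample, fewer muscle fibres and less of a transcript per fibre cannot be told apart. Markers of muscle fibres moved in the same direction, with 7 of 11 lower, 1 higher, and a summed level of 82430 to 160500 CPM at 10 mg/kg/day and 152100 to 208800 CPM at 1 mg/kg/day. Their part in the fall of respiratory genes was not tested.

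**Figure D1:**
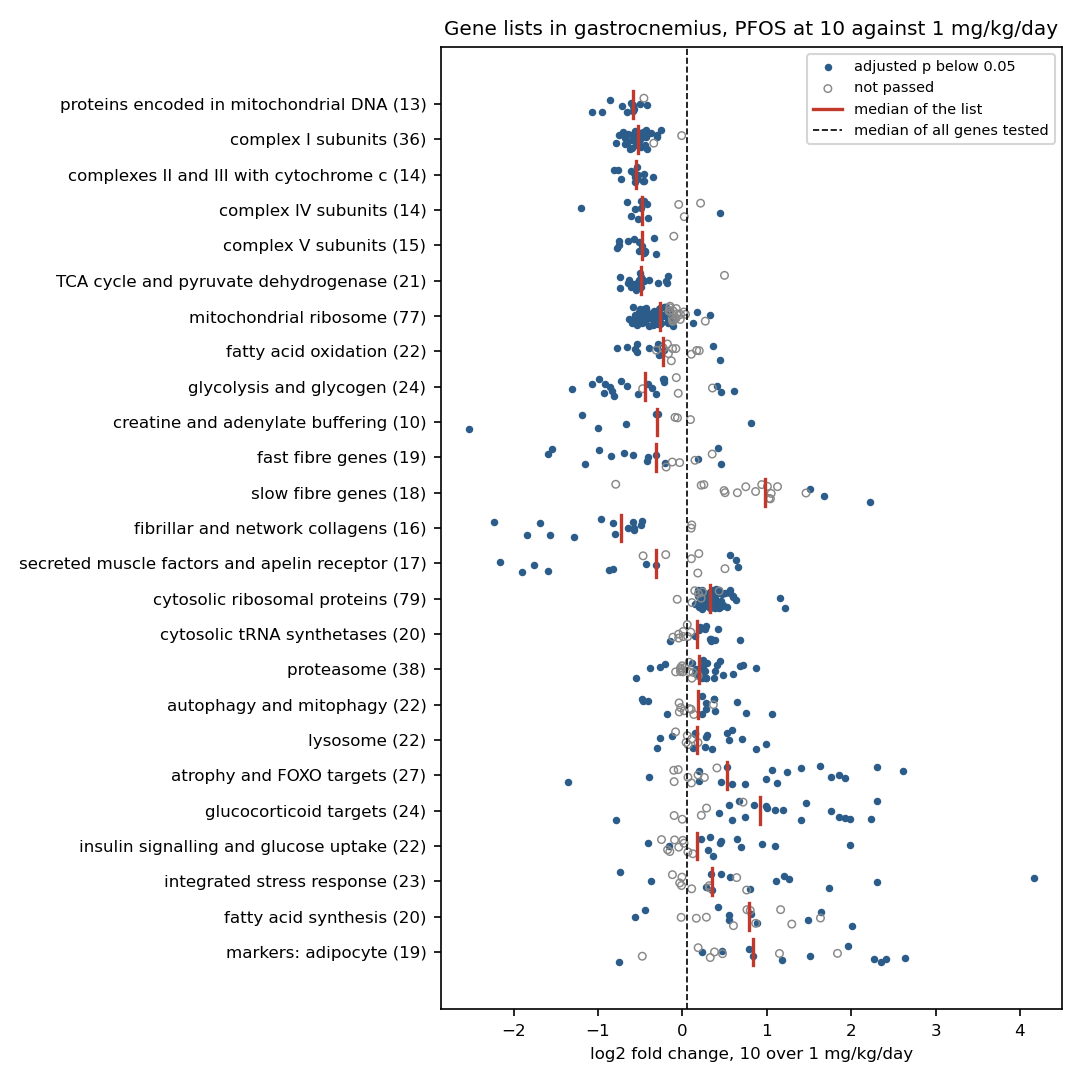
Log2 fold change of 10 over 1 mg/kg/day (x axis) for the genes of 25 lists (y axis, number tested in parentheses). Each point is a gene, filled where its adjusted p was under 0.05, red bars are list medians and the dashed line is the median of all genes, 0.05. Respiratory and TCA cycle genes lie left of the line with medians from -0.59 to -0.47, and ribosomal protein genes lie right of it with a median of 0.33.

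The subunits below had the smallest p of their lists or came from a fixed set, and most others overlapped more between doses. All mice at 10 mg/kg/day were below all at 1 mg/kg/day in 2 of 36 genes of complex I. For complexes II and III with cytochrome c this held in 2 of 14, and for complex V in 2 of 15. In complex IV it held in 0 of 14 and among mitochondrially encoded genes in 0 of 13, against 0.605% of all genes. Ndufs1, the largest subunit of complex I, had 156, 219 and 280 CPM as lowest, median and highest of the mice at 10 mg/kg/day, against 278, 359 and 459 CPM at 1 mg/kg/day (-0.75 ± 0.07, adjusted p = 3.62e-09). The ranges met only at the lowest mouse of the low dose, an hCYP2B6-Tg female. Cytochrome c (Cycs), the carrier between complexes III and IV, had 117.1, 149 and 205 CPM at 10 mg/kg/day and 212, 272 and 352 CPM at 1 mg/kg/day, with no overlap (-0.81 ± 0.08, adjusted p = 3.34e-09). Uqcrc1, a core protein of complex III, had 303, 409 and 543 CPM at 10 mg/kg/day, against 472, 679 and 919 CPM at 1 mg/kg/day (-0.73 ± 0.08). For that gene the 2 ranges overlapped. Atp5j, a stalk subunit of complex V, averaged 168.8 ± 31.6 CPM at 10 mg/kg/day and 282.4 ± 26.2 CPM at 1 mg/kg/day, again with every mouse of the high dose below every mouse of the low dose. mt-Co1, the catalytic subunit of complex IV, averaged 22980 ± 4461 CPM at 10 mg/kg/day and 34500 ± 4429 CPM at 1 mg/kg/day (-0.59 ± 0.08). Within strata the counts of complex I genes that fell were 28 in hCYP2B6-Tg females, 25 in hCYP2B6-Tg males, 21 in Cyp2b-null females and 33 in Cyp2b-null males, and none rose in any. For the 13 mitochondrially encoded genes those counts were 7, 1, 9 and 8 in the same order of strata. The shares of all genes that fell were 11.5%, 6.99%, 3.57% and 10.3% in that order, and 1 of 13 in hCYP2B6-Tg males is near its share. Without the libraries that stand apart 33 complex I genes fell, with a median of -0.45, and on library totals 31 fell with a median of -0.34.

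**Figure D2:**
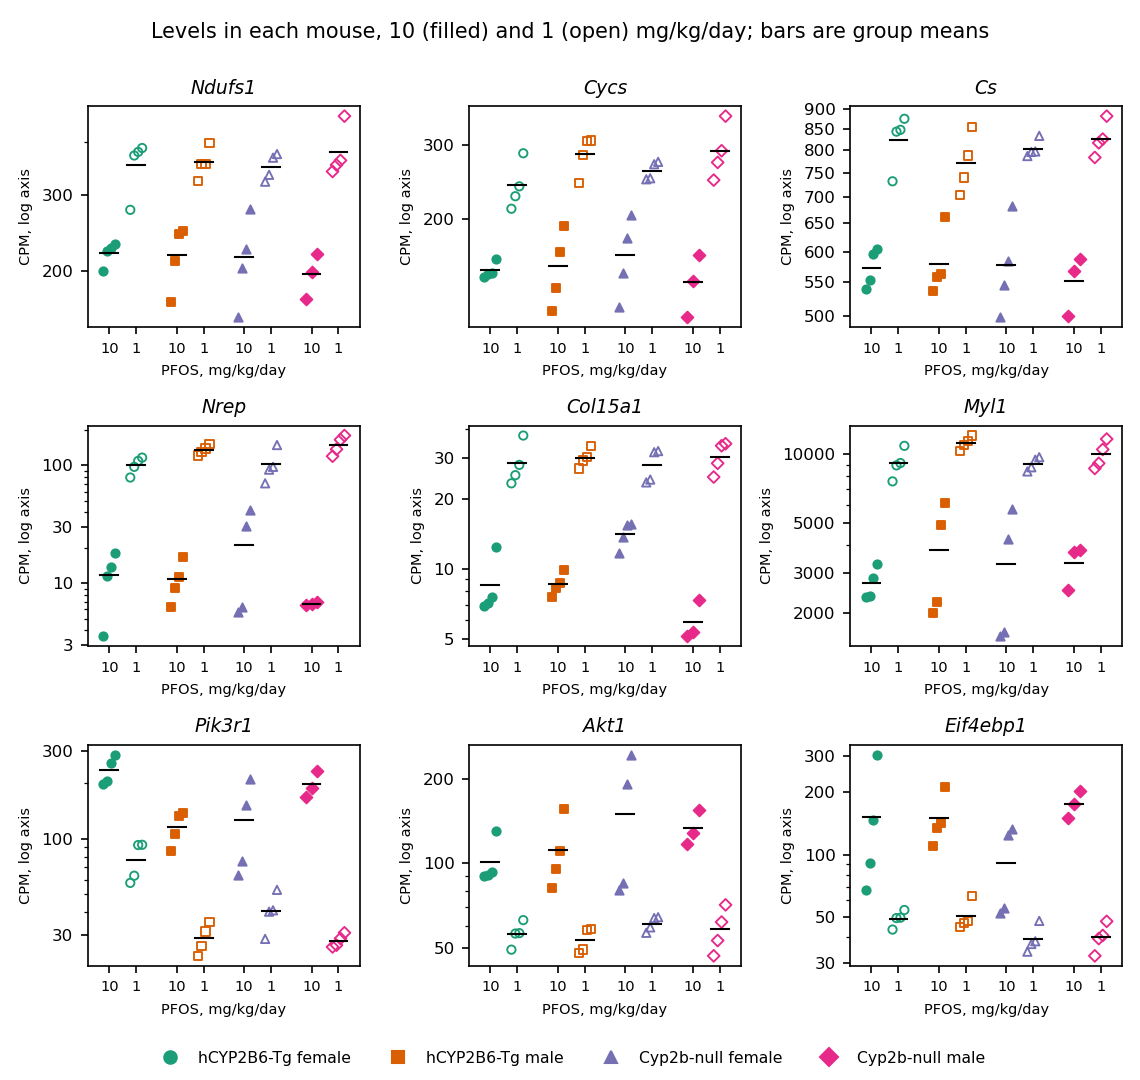
Level of 9 genes in each mouse (y axis, CPM on a log axis) by stratum and dose (x axis), filled at 10 and open at 1 mg/kg/day, ordered by value within a group, with bars at group means. For Cycs, Cs, Nrep, Col15a1 and Myl1 every mouse at 10 mg/kg/day lies below every mouse at 1 mg/kg/day, and for Akt1 every one lies above.

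Promoters of respiratory genes are shown because the NRF1 site is the best known sequence they share. The sequence tables of RefSeq (GRCm38.p6, 250 bases before to 50 after the start) matched 10946 of the tested genes by symbol. The NRF1 core CGCATGCG, which reads the same on both strands, was found in 10 of 65 promoters of nuclear respiratory genes (15.4%) and in 439 of all 10946 (4.01%). The estrogen-related receptor motif TCAAGGTCA, searched on both strands, was found in 2 of the 65 (3.08%) and in 0.356% of all promoters. Of the 10 genes with the NRF1 core 8 fell, and Atp5g2 (-0.10, adjusted p = 0.0742) and Cox6a1 (0.22, adjusted p = 0.334) did not pass. Falls were the rule among nuclear respiratory genes as a whole. By list they numbered 34 of 36 for complex I, 10 of 14 for complex IV and 14 of 15 for complex V. In the list that holds Cycs and Uqcrc1 they numbered 14 of 14. Whether the core goes with the fall was not tested. A match describes the letters and shows no binding. The promoters of 3 genes that fell follow, 5′ to 3′ on the strand of the gene, with the core in capitals, from chr6:50566520-50566819 (minus strand) for Cycs, chr9:108936398-108936697 (plus strand) for Uqcrc1 and chr16:84834927-84835226 (minus strand) for Atp5j.
Cycs: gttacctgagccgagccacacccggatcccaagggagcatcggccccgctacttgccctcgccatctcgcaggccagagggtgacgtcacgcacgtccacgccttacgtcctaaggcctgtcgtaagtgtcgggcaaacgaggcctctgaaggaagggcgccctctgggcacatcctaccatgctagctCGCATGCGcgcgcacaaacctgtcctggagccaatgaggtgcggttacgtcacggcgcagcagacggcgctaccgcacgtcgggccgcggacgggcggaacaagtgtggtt
Uqcrc1: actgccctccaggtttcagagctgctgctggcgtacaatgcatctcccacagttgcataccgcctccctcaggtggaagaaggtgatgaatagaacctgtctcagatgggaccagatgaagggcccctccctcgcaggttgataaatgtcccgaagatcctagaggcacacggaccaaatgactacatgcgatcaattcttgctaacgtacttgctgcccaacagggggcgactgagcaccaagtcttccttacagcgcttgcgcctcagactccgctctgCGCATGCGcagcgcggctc
Atp5j: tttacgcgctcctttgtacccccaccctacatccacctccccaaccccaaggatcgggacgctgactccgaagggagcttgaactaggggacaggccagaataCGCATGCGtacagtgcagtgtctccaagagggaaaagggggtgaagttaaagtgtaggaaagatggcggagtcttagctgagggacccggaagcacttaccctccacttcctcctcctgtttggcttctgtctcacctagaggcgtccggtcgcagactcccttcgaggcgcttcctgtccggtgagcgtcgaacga
The core lies shortly before the start of the gene in Cycs, just after it in Uqcrc1 and farther upstream in Atp5j.

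Enzymes that feed the chain fell as well. In the list of the TCA cycle and pyruvate dehydrogenase 20 of 21 genes fell, and Idh2 (0.50, adjusted p = 0.124) did not pass. The median was -0.50, and in 6 genes all mice at 10 mg/kg/day were below all at 1 mg/kg/day, against 0.605% of all genes. Citrate synthase (Cs), which starts the cycle, had 498, 564 and 683 CPM as lowest, median and highest at 10 mg/kg/day, against 704, 807 and 881 CPM at 1 mg/kg/day (-0.50 ± 0.05, adjusted p = 3.62e-09). Mdh2, the malate dehydrogenase of the cycle, had 364, 445 and 586 CPM at 10 mg/kg/day and 592, 718 and 881 CPM at 1 mg/kg/day (-0.64 ± 0.06). The highest mouse of the high dose stayed below the lowest of the low dose for both enzymes. Pdhx, which anchors a subunit of pyruvate dehydrogenase, fell by 0.63 ± 0.06 on the log2 scale, also with no overlap. Of 77 genes of the mitochondrial ribosome, which translates the mitochondrial transcripts, 56 fell and 3 rose (median -0.27), on library totals 26 fell and 9 rose (median -0.07), with Mrpl48 at 27.0 ± 4.17 CPM at 10 mg/kg/day and 40.6 ± 3.18 CPM at 1 mg/kg/day.

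Regulators of mitochondrial content moved less evenly. In the list of mitochondrial biogenesis and dynamics 13 of 22 genes fell and 4 rose (median -0.29), but on library totals 5 fell and 7 rose (median -0.09). Estrogen-related receptor alpha (Esrra), a partner of PGC-1alpha, had 38.9, 63.6 and 82.7 CPM at 10 mg/kg/day and 67.7, 118.8 and 155 CPM at 1 mg/kg/day (-0.84 ± 0.09, adjusted p = 3.15e-08). PGC-1alpha itself (Ppargc1a) fell by 0.42 ± 0.11 on the log2 scale, with ranges of 18.4 to 41.5 CPM at 10 mg/kg/day and 28.9 to 72.2 CPM at 1 mg/kg/day that overlapped. With the level of adipocyte markers as a covariate its value was -0.28 (adjusted p = 0.0597), and on library totals -0.23 (adjusted p = 0.0585). The mitochondrial deacetylase Sirt3 fell by 0.87 ± 0.12 and the fission protein Dnm1l by 0.50 ± 0.06 on the log2 scale. Other members that fell were the mitochondrial transcription factor Tfam (-0.29), the fusion genes Opa1 (-0.38), Mfn1 (-0.28) and Mfn2 (-0.30), and Perm1, a muscle regulator of oxidative genes (-0.72). The 4 that rose were Nrf1 (0.50), which encodes the factor of the NRF1 core, the PGC-1-related coactivator Pprc1 (0.41), and the mitochondrial polymerases Polg (0.20) and Polrmt (0.20).

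Fat oxidation and PPAR targets did not follow as one block. Of 22 genes of fatty acid oxidation 10 fell, 2 rose and 10 did not pass (median -0.23), and 5 fell without the libraries that stand apart and 5 with the adipocyte covariate. Acads, the short-chain acyl-CoA dehydrogenase, averaged 38.3 ± 7.23 CPM at 10 mg/kg/day and 65.8 ± 10.1 CPM at 1 mg/kg/day (-0.78 ± 0.09), and Hadh and Decr1, later enzymes of the pathway, fell by 0.57 and 0.53 on the log2 scale. The fatty acid transporter Cd36 rose by 0.45 and the hydratase Echs1 by 0.37. Cpt1b, which admits fatty acids to muscle mitochondria, did not pass (-0.31, adjusted p = 0.120). Of 24 PPAR targets 6 fell, 2 rose and 16 did not pass, with a median of -0.17, which was 0.08 without the libraries that stand apart. Over all genes tested 20.8% fell and 24% rose. Ucp3, a mitochondrial carrier of muscle, had 18.6, 76.5 and 292 CPM at 10 mg/kg/day and 68.3, 165 and 250 CPM at 1 mg/kg/day (-1.11 ± 0.26, adjusted p = 0.00121). Its highest mouse of all was at the high dose although the median was lower there. Pdk4, which blocks pyruvate dehydrogenase, did not pass (-0.45 ± 0.51, adjusted p = 0.499), nor did the lipase inhibitor Angptl4 (-0.20 ± 0.33).

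Transcripts of glycolysis fell with those of mitochondria. In the list of glycolysis and glycogen 17 of 24 genes fell and 3 rose (median -0.44). Muscle phosphoglycerate mutase (Pgam2) had 239, 672 and 1560 CPM at 10 mg/kg/day and 1616, 1731 and 2519 CPM at 1 mg/kg/day, with no overlap (-1.30 ± 0.16, adjusted p = 2.26e-07). Pyruvate kinase (Pkm) fell by 0.93 ± 0.11, triosephosphate isomerase (Tpi1) by 0.98 ± 0.13 and muscle enolase (Eno3) by 1.08 ± 0.14 on the log2 scale. The 3 that rose act on glycogen: Gbe1 (0.61), Gyg (0.46) and Ugp2 (0.41). Buffers of ATP fell too, with 6 of 10 genes of creatine and adenylate metabolism lower and 1 higher, the deaminase Ampd3 (0.82). Gamt, the last enzyme of creatine synthesis, averaged 2.61 ± 2.61 CPM at 10 mg/kg/day and 13.1 ± 2.56 CPM at 1 mg/kg/day (-2.53 ± 0.26). Mitochondrial creatine kinase (Ckmt2) had 200.9 to 529 CPM at 10 mg/kg/day and 304 to 1717 CPM at 1 mg/kg/day (-1.19 ± 0.16), and adenylate kinase (Ak1) fell by 1.00 ± 0.13 on the log2 scale. Branched-chain amino acid breakdown was mixed, with 8 of 20 genes lower, 4 higher and a median of -0.08. On library totals 3 were lower and 7 higher, with a median of 0.12.

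Fast-fibre contractile genes were lower and slow-fibre genes differed from mouse to mouse. Of 19 fast-fibre genes 11 fell and 3 rose (median -0.31). The fast myosin light chain Myl1 had 1576, 2857 and 6085 CPM at 10 mg/kg/day and 7595, 9587 and 12090 CPM at 1 mg/kg/day (-1.59 ± 0.16, adjusted p = 8.69e-09), and the calcium store protein Casq1 had 370, 793 and 2099 CPM at 10 mg/kg/day and 2338, 2613 and 3463 CPM at 1 mg/kg/day (-1.55 ± 0.17). Neither gene overlapped between the doses. The heavy chain of the fastest fibres, Myh4, fell less, to 46240 ± 10430 CPM at 10 mg/kg/day, against 69170 ± 8363 CPM at 1 mg/kg/day (-0.58 ± 0.10). Skeletal actin (Acta1) fell by 1.01 ± 0.13 on the log2 scale, and parvalbumin (Pvalb), the calcium buffer of fast fibres, by 1.15. Actn3, Mylk2 and the calcium pump Atp2a1 rose, by 0.46, 0.42 and 0.19. Of 18 slow-fibre genes 3 rose, the pump inhibitor Sln (2.22 ± 0.50) and the stretch-responsive Ankrd2 (1.68 ± 0.48) and Csrp3 (1.51 ± 0.53), and the other 15 did not pass although the median was 0.97. Over all genes tested 24% rose. Slow myosin Myh7 had 40.8, 430 and 2521 CPM at 10 mg/kg/day, against 0.648, 153 and 729 CPM at 1 mg/kg/day (1.47 ± 0.88, adjusted p = 0.179).

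The largest falls were named by a rule that asked for the same direction in all strata. Cardiac actin (Actc1), an isoform of developing muscle, fell the most, with 7.26, 35.4 and 190 CPM at 10 mg/kg/day and 140, 603 and 2865 CPM at 1 mg/kg/day (-3.85 ± 0.46, adjusted p = 2.63e-07). Nrep, named for its expression in regenerating neurons, had 3.54, 9.20 and 41.7 CPM at 10 mg/kg/day and 70.4, 120 and 179.1 CPM at 1 mg/kg/day, with no overlap (-3.30 ± 0.30, adjusted p = 3.62e-09). Kcng4, a potassium channel subunit (chr8:119623854-119635680, minus strand, GRCm38), had 1.04, 5.28 and 13.9 CPM at 10 mg/kg/day and 15.3, 33.1 and 66.0 CPM at 1 mg/kg/day (-2.76 ± 0.26). The long non-coding Foxo6os (chr4:120291350-120303892, plus strand) fell by 3.12 ± 0.27 on the log2 scale, and its opposite-strand neighbour Foxo6 by 1.89, but reads of the pair cannot be told apart since whether the counting used strand is unknown. The rest were the phosphatase Dupd1 (-2.60), Gamt, the DNA repair partner Rmi2 (-2.25), Col3a1, the muscle hormone Ostn (-2.17), Pld5 (-2.16), the growth factor carrier Fgfbp1 (-2.11) and Mdga1 (-2.08). Among genes of immature and denervated muscle as a whole 6 of 21 rose and 4 fell (median 0.20). These shares were near those of all genes tested, of which 24% rose and 20.8% fell. The acetylcholine receptor subunits moved apart: Chrne, of adult endplates, fell by 0.59 ± 0.11 and Chrnb1 rose by 0.47 ± 0.08.

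Collagen transcripts fell nearly throughout. Of 16 fibrillar and network collagens 14 fell and none rose (median -0.72). Col15a1, of the basement membrane zone (chr4:47208161-47313167, plus strand), had 5.11, 8.28 and 15.6 CPM at 10 mg/kg/day and 23.2, 28.8 and 37.3 CPM at 1 mg/kg/day, with no overlap (-1.68 ± 0.13, adjusted p = 1.19e-10). Col3a1, a fibrillar collagen, had 9.36, 25.01 and 61.2 CPM at 10 mg/kg/day and 81.8, 129.1 and 182 CPM at 1 mg/kg/day, again apart (-2.23 ± 0.21). Col1a1 fell by 1.85 ± 0.24 and Col6a2 by 1.28 ± 0.15 on the log2 scale, while Col12a1 and Col14a1 did not pass (0.10 and 0.11). By stratum 12 of the 16 fell in females and 9 in males of hCYP2B6-Tg, 2 in Cyp2b-null females and 13 in Cyp2b-null males, where the shares of all genes that fell were 11.5%, 6.99%, 3.57% and 10.3%. No collagen passed the test of a difference between sexes or genotypes. Other matrix and fibroblast genes were mixed, with 12 of 28 lower and 6 higher (median -0.20), on library totals 6 and 7 (median 0.01). The collagen chaperone Serpinh1 fell by 0.77 on the log2 scale and the crosslinker Loxl2 by 1.05 ± 0.15, but the crosslinker Lox rose by 1.10 ± 0.15, the inhibitor Timp3 by 0.61 ± 0.08 and thrombospondin 1 (Thbs1) by 1.62. Tendon markers, which share collagens with the matrix, had 4 of 10 lower and 1 higher, with a summed level of 21.1 to 141.9 CPM at 10 mg/kg/day and 26.2 to 127.1 CPM at 1 mg/kg/day, and their part in the collagen fall was not tested. Among secreted factors 8 of 17 fell and 3 rose, and 1 rose without the libraries that stand apart. The peptide apelin (Apln) and its receptor Aplnr both fell, Aplnr without overlap (2.22 ± 0.852 CPM at 10 mg/kg/day and 7.23 ± 2.47 CPM at 1 mg/kg/day), and Gdf11, of the myostatin family, fell by 1.59 ± 0.24 on the log2 scale. Vegfa, the vascular growth factor, fell by 0.31 and myostatin (Mstn) did not pass (0.11).

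Genes of protein breakdown were higher. Of 27 atrophy genes and FOXO targets 17 rose and 2 fell (median 0.52). The ubiquitin ligase Fbxo32 (atrogin-1) had 170, 1100 and 4676 CPM at 10 mg/kg/day and 339, 513 and 690 CPM at 1 mg/kg/day (1.12 ± 0.27, adjusted p = 0.00169), and Trim63 (MuRF1), which marks contractile proteins for the proteasome, had 173, 513 and 5891 CPM at 10 mg/kg/day and 235, 283 and 664 CPM at 1 mg/kg/day (1.24 ± 0.35, adjusted p = 0.00500). In both genes the lowest mouse of all was at the high dose. Eif4ebp1, a brake on translation, rose more evenly, with 52.3, 134.4 and 304 CPM at 10 mg/kg/day and 32.3, 45.6 and 62.9 CPM at 1 mg/kg/day (1.63 ± 0.17, adjusted p = 3.52e-08). Foxo1 (0.99), Foxo3 (0.58), the cell cycle inhibitor Cdkn1a (1.76 ± 0.24), the mitophagy gene Bnip3 (1.06 ± 0.14) and the FOXO target Depp1 (2.62 ± 0.44) rose as well, and Fbxo40 (-0.40) and Igfbp5 (-1.36) fell. Proteasome genes rose in 22 of 38 cases and fell in 4 (median 0.20). Its ubiquitin receptor Psmd4 had 166, 234 and 326 CPM at 10 mg/kg/day and 121.8, 147 and 162 CPM at 1 mg/kg/day, with no overlap (0.72 ± 0.08). Autophagy genes rose in 10 of 22 and fell in 4, among them the autophagosome protein Map1lc3b, which rose without overlap (0.75 ± 0.09), and the mitophagy receptor Fundc1, which fell by 0.48 ± 0.06. Of 22 lysosomal genes 13 rose and 3 fell, and 8 rose without the libraries that stand apart and 8 with the adipocyte covariate, with the membrane protein Lamp2 at 0.56 ± 0.07.

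The forkhead motif TGTTTAC, on either strand, was present in 2 of 24 promoters of atrophy genes and FOXO targets (8.33%) and in 3.24% of all promoters. The promoter of Trim63, a textbook FOXO target, is 1 of the 2, and is shown with that motif in capitals (chr4:134314870-134315169, plus strand, GRCm38.p6).
Trim63: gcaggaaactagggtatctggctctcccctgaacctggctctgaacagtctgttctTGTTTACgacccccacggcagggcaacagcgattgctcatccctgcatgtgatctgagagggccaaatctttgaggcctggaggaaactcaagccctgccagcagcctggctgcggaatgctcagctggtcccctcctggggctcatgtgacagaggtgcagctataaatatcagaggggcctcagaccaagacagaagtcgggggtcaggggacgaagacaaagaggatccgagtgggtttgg
The motif lies far upstream of the start of the gene within this window.

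Glucocorticoid targets rose beside them, and insulin signalling genes in part. The lists share members: Pik3r1 is in the glucocorticoid and insulin lists, and Cdkn1a in the atrophy and glucocorticoid lists. Of 24 glucocorticoid targets 18 rose and 1 fell, the phosphatase Dusp1 (-0.79), with a median of 0.92. Pik3r1, a regulatory subunit of phosphoinositide 3-kinase (chr13:101680563-101768217, minus strand), had 63.6, 170 and 285 CPM at 10 mg/kg/day and 23.2, 33.4 and 92.8 CPM at 1 mg/kg/day (1.99 ± 0.16, adjusted p = 6.83e-10). The ranges overlapped because 2 Cyp2b-null females and 1 hCYP2B6-Tg male of the high dose lay below the highest low-dose hCYP2B6-Tg females, and within each stratum the doses were apart. Ddit4, an inhibitor of the growth kinase mTORC1, had 11.5, 28.1 and 382 CPM at 10 mg/kg/day and 4.47, 10.3 and 40.6 CPM at 1 mg/kg/day (2.31 ± 0.46, adjusted p = 0.000220). The chaperone Fkbp5 (1.2), Cebpd (2.24), the kinase Mknk2 (1.00 ± 0.12) and the metallothioneins Mt1 (1.86) and Mt2 (1.93) rose, and Tsc22d3, another well-known target, did not pass (-0.10), nor did the receptor Nr3c1 (0.00). In the insulin list 11 of 22 rose and 2 fell (median 0.17), where 24% of all genes tested rose and 20.8% fell. The kinase Akt1 had 80.3 to 243 CPM at 10 mg/kg/day and 46.9 to 71.2 CPM at 1 mg/kg/day, without overlap (1.09 ± 0.12, adjusted p = 6.30e-08). Insr (0.36), Igf1r (0.65), Irs2 (0.46) and the glucose transporter Slc2a1 (0.70) rose, while the insulin-responsive transporter Slc2a4 fell by 0.16 and Rab10, which carries it to the membrane, by 0.41 ± 0.05 on the log2 scale.

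Transcripts for cytosolic translation went the other way from those of the mitochondrial ribosome. Of 79 genes of cytosolic ribosomal proteins 72 rose and none fell (median 0.33), and in 11 all mice at 10 mg/kg/day were above all at 1 mg/kg/day. Over all genes tested 0.377% lay above in this way. Rps25 had 211, 251 and 299 CPM at 10 mg/kg/day and 155, 181.1 and 205 CPM at 1 mg/kg/day (0.50 ± 0.05, adjusted p = 3.95e-09). The largest rise was that of Rpl3, to 84.5 ± 38.1 CPM at 10 mg/kg/day, against 35.4 ± 5.55 CPM at 1 mg/kg/day (1.21 ± 0.16). Counts of single ribosomal protein genes are uncertain where reads could belong to their many pseudogenes. Of 20 cytosolic tRNA synthetases, which charge tRNAs with amino acids, 11 rose and 1 fell (median 0.17), and the valine enzyme Vars rose without overlap (82.7 ± 14.3 CPM at 10 mg/kg/day and 51.7 ± 7.501 CPM at 1 mg/kg/day).

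The integrated stress response, which slows translation and raises amino acid supply through the factor ATF4, was raised in part. Of 23 genes tested of 25 listed 12 rose and 2 fell (median 0.35), and 8 rose with the adipocyte covariate. Atf4 itself rose by 0.33, the serine synthesis genes Phgdh and Psat1 by 1.73 and 1.21, the amino acid transporter Slc7a5 by 1.11 ± 0.19 and the phosphatase subunit Ppp1r15a by 0.80 ± 0.16. Psph, the last step of serine synthesis, fell by 0.74 ± 0.09 and the mitochondrial Mthfd2 by 0.37 on the log2 scale, and Ddit3, Atf3 and Chac1 did not pass (-0.12, 0.64 and 0.76). Asns, asparagine synthetase, had 0.626, 2.77 and 9.14 CPM at 10 mg/kg/day and 0.417, 1.35 and 4.45 CPM at 1 mg/kg/day (1.26 ± 0.39, adjusted p = 0.00878). Its ranges overlapped widely. Without the libraries that stand apart its value was 0.94 (adjusted p = 0.0623), and with adipocyte markers as a covariate -0.06 (adjusted p = 0.887). The CARE motif TGATGNAA, where ATF4 can bind, was found on either strand in 8 of 22 promoters of this list (36.4%), in 5 of 12 promoters of tRNA synthetases (41.7%) and in 2.76% of all promoters. Of the 13 genes that carry it 7 rose and none fell, and the other 6 did not pass. In the 2 lists as a whole 12 of 23 and 11 of 20 genes rose, and over all genes tested 24% did. Whether the motif goes with the rise was not tested. The promoter of Asns is shown as the classic carrier, with the motif in capitals (chr6:7693160-7693459, minus strand, GRCm38.p6).
Asns: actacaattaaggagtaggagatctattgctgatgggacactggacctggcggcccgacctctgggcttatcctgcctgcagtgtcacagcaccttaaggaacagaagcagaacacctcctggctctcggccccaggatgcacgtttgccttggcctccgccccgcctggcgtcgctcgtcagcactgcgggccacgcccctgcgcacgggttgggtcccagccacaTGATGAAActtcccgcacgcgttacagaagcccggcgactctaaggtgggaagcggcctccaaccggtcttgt
Other stress responses moved less. Endoplasmic reticulum chaperones rose in 11 of 22 cases and fell in none (median 0.16), with protein disulfide isomerase P4hb at 0.53 ± 0.08. Cytosolic heat shock genes had 3 higher and 7 lower of 23 (median -0.04), on library totals 6 and 5 (median 0.18), with falls of Hspa8 (-0.48 ± 0.08) and the mitochondrial chaperone Hspd1 (-0.36 ± 0.05). Antioxidant genes had 11 higher and 7 lower of 26, 6 and 6 without the libraries that stand apart, and 6 and 5 with the covariate. Mitochondrial Sod2 fell by 0.56 ± 0.06 and Prdx3 by 0.31 ± 0.05, secreted Gpx3 rose by 1.09 ± 0.15, and the NRF2 target Nqo1 did not pass (0.00). The list also holds Slc7a11, which had the largest value of this list and of the integrated stress response list (4.16, adjusted p = 0.000904). That gene missed the mean level or the single direction asked of the largest rises.

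Clock and signal-responsive genes were mixed. Of 19 core clock genes 7 rose and 2 fell, where 24% of all genes tested rose and 20.8% fell. Per1 (0.85), Per2 (0.73) and Cry2 (0.77 ± 0.17) rose while the output gene Dbp fell by 0.88. The sources used here do not state the hour of death. Immediate early genes rose in 9 of 23 cases (6 with the adipocyte covariate) and fell in 2, with Myc at 1.07 ± 0.18 and Jun at 0.56 ± 0.10. Of 24 listed cytochrome P450 and xenobiotic genes 13 could be tested and 3 rose: Cyp1b1 (2.45 ± 1.25 CPM at 10 mg/kg/day and 0.433 ± 0.462 CPM at 1 mg/kg/day, 2.52 ± 0.36), Cyp4b1 (0.78 ± 0.16) and the reductase Por (0.63 ± 0.13). That share was near the 24% of all genes tested that rose. Mouse Cyp2b10 and Cyp2b9 each had 0 counts in 30 of the 31 libraries and Cyp2b13 had 0 in all. The 5 counts of Cyp2b10, in a female at 10 mg/kg/day, and the 10 counts of Cyp2b9, in the albumin-rich male library at 1 mg/kg/day, both lay in libraries labelled Cyp2b-null and so went against the label. Counts this low in either genotype do not check the labels in this muscle.

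Fat cell and lipid synthesis transcripts rose with a wide spread between mice. Of 20 genes of fatty acid synthesis 8 rose and 2 fell (median 0.78), and of 19 adipocyte markers 11 rose and 1 fell (median 0.83). Fatty acid synthase (Fasn) had 15.2, 60.8 and 2784 CPM at 10 mg/kg/day and 9.89, 19.96 and 261 CPM at 1 mg/kg/day (2.01 ± 0.81, adjusted p = 0.0446), and without the libraries that stand apart its adjusted p was 0.113. Adiponectin (Adipoq), a hormone of fat cells, had 2.64, 27.9 and 116.8 CPM at 10 mg/kg/day and 0.598, 3.46 and 79.6 CPM at 1 mg/kg/day (2.27 ± 0.68, adjusted p = 0.00814). Both doses held mice with high and with low levels of either gene. Adipsin (Cfd) rose by 2.63 ± 0.73 and the lipid droplet gene Cidec by 2.41 ± 0.71, whereas Car3, which fat and muscle both express, fell by 0.75 ± 0.14 on the log2 scale, and the glycerol acyltransferase Gpam by 0.56 ± 0.07. The summed level of the adipocyte markers, several of which muscle expresses, was 3294 to 7149 CPM at 10 mg/kg/day and 2947 to 7738 CPM at 1 mg/kg/day, and none was at 0 in all libraries. With the mean level of these markers as a covariate 3 genes of fatty acid synthesis rose and 2 fell (median 0.01), Fasn had 0.18 (adjusted p = 0.744), and 5273 genes passed in all. Since 11 of the 19 markers rose with dose, this fit also takes out dose differences that other genes share with them. The part of fat cells was not tested.

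The highest rises by fold came from lymph node transcripts of a few libraries. Of 14 lymphocyte and lymph node markers tested 11 rose and 1 fell, with a median of 3.34, but without the 5 libraries that stand apart 1 rose and 2 fell and the median was -0.18. Glycam1 had 790, 615, 71 and 41 counts in the 4 libraries at 10 mg/kg/day and 0 or 1 in the other 11, and at 1 mg/kg/day it had 2 counts or fewer, with 14 of 16 libraries at 0. The B cell antigen receptor genes Ighd (3.91 ± 0.98) and Cd79a (3.82 ± 0.93), the light chain Igkc (2.94 ± 0.90), the lymphocyte GTPase Gimap3 (3.46 ± 0.68) and the blood cell GTPase Rac2 (2.49 ± 0.61) were likewise among the 12 largest rises. Without those libraries the values were 0.00 for Ighd (adjusted p = 0.999), 0.32 for Igkc (adjusted p = 0.694), 0.89 for Gimap3 (adjusted p = 0.0150) and 0.17 for Rac2 (adjusted p = 0.643). The summed level of the lymph node markers was 25.2 to 440.6 CPM at 10 mg/kg/day and 38.02 to 240.4 CPM at 1 mg/kg/day. Cxcl13, a chemokine that draws B cells, kept most of its rise, with 0.317, 3.63 and 15.7 CPM at 10 mg/kg/day and 0, 0.0755 and 0.730 CPM at 1 mg/kg/day (4.52 ± 0.57, adjusted p = 4.07e-07), and 3.73 ± 0.53 (adjusted p = 8.3e-06) without those libraries. The rule for the largest rises was also applied without them, with the direction in the strata still taken from all 31 mice. Cxcl13 then missed its floor of a mean log2 CPM of 1. The 12 largest rises were Depp1 (2.87 ± 0.49), Sln (2.63), the interleukin-6 receptor Il6ra (2.60 ± 0.34), Ddit4 (2.40), Cebpd (2.39), Doc2b (2.37), Cfd (2.33), Scd1 (2.32), Cdo1 (2.32), Cidec (2.21), Car5b (2.19) and Retn (2.17). Il6ra had 6.86, 23.4 and 190 CPM at 10 mg/kg/day and 2.16, 4.31 and 17.7 CPM at 1 mg/kg/day in the full set (2.56 ± 0.30, adjusted p = 1.95e-07). Tmem179, of unknown role in muscle, rose by 2.51 ± 0.62.

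Among markers of other cell types, those of macrophages rose in 5 of 13 cases, and in 1 both without the libraries that stand apart and with the adipocyte covariate. Their summed level was 43.5 to 122.4 CPM at 10 mg/kg/day and 32.1 to 128.7 CPM at 1 mg/kg/day. Endothelial markers rose in 3 of 15 (median 0.08) and in none with the covariate, and Schwann cell markers in 2 of 12 and in 1 without those libraries. Neither share exceeded that of all genes tested, of which 24% rose and 20.8% fell. Red blood cell markers fell in 4 of 5 (median -0.64), with a summed level of 21.9 to 101.9 CPM at 10 mg/kg/day and 43.2 to 108.9 CPM at 1 mg/kg/day. None of them fell without the libraries that stand apart (median -0.34), and 1 fell on library totals and 1 with the covariate. Satellite cell markers, of the stem cells of muscle, had 2 higher and 2 lower of 9: Calcr, which keeps these cells quiescent, fell by 2.00 ± 0.28, and the adhesion gene Cdh15 rose by 0.64 ± 0.09. Smooth muscle and pericyte markers had 1 higher and 2 lower of 11. None of 4 liver markers passed (median 0.96), but without the libraries that stand apart, the albumin-rich one at 1 mg/kg/day among them, 2 rose (median 1.94). Neither of 2 neutrophil markers passed, and both rose on library totals.

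Read stratum by stratum, the same step in dose passed the threshold in 3458 genes of hCYP2B6-Tg females (22.5%, 11% higher and 11.5% lower), 2021 of hCYP2B6-Tg males (13.1%, 6.15% higher and 6.99% lower), 1053 of Cyp2b-null females (6.85%, 3.28% higher and 3.57% lower) and 2953 of Cyp2b-null males (19.2%, 8.91% higher and 10.3% lower). All these shares are of the genes tested. All strata were fitted with 1 estimate of spread. In all 4 strata 358 genes passed, and all 358 with the same sign. These counts turn on single mice: without 1 mouse at 10 mg/kg/day they were 2089 in hCYP2B6-Tg females (mouse 2), 896 in hCYP2B6-Tg males (mouse 3), 206 (mouse 3) or 2097 (mouse 4) in Cyp2b-null females and 1700 in Cyp2b-null males (mouse 3). Mice 3 of the last 3 groups are among the libraries that stand apart.

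**Figure D3:**
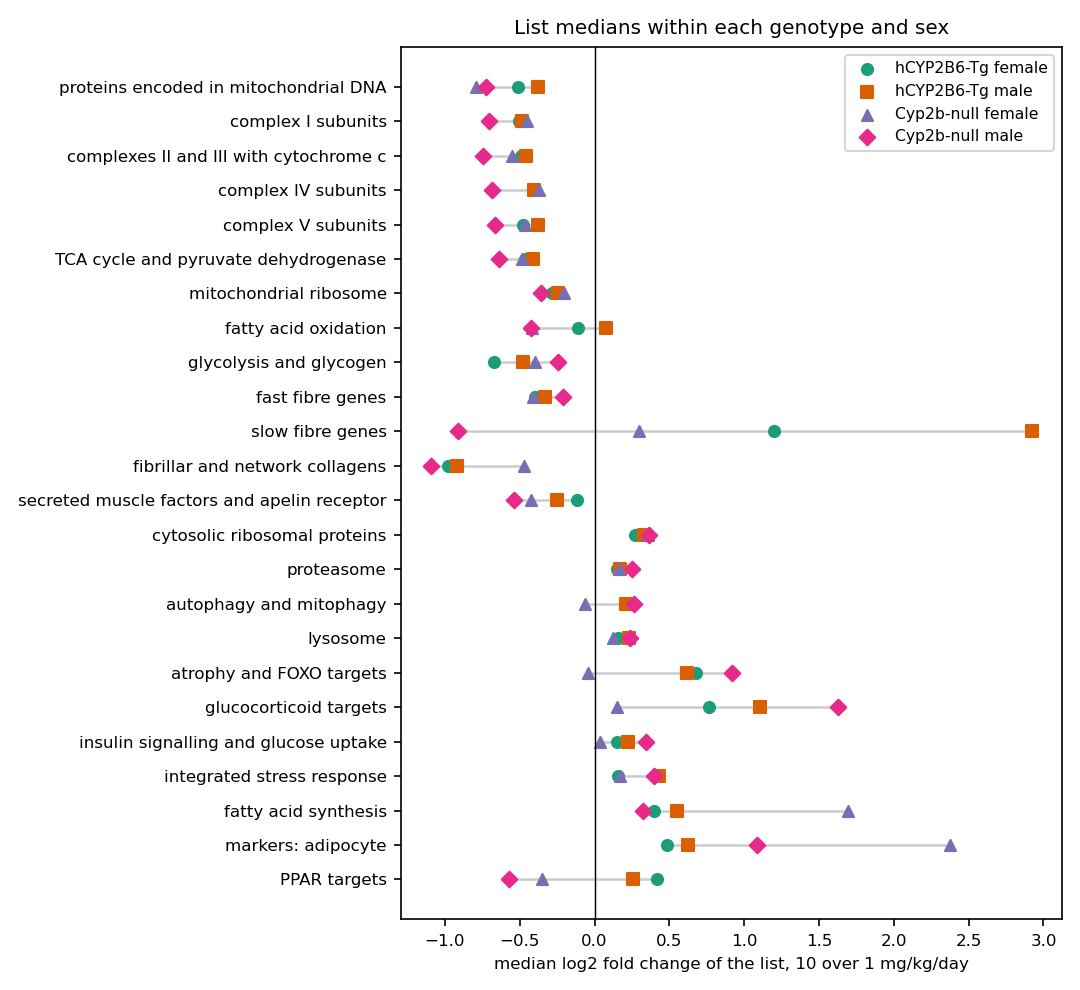
Median log2 fold change of 10 over 1 mg/kg/day (x axis) for 24 gene lists (y axis) within each stratum, 1 symbol per stratum. Respiratory lists, collagens and ribosomal proteins lie on 1 side of 0 in all strata, whereas slow-fibre genes run from -0.91 in Cyp2b-null males to 2.92 in hCYP2B6-Tg males, and PPAR targets lie on both sides.

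The medians of several lists differed between strata, among them the atrophy, glucocorticoid, lipid and slow-fibre lists and PPAR targets. In Cyp2b-null females the median of atrophy genes and FOXO targets was -0.04, against 0.68 in the females and 0.62 in the males of hCYP2B6-Tg and 0.92 in Cyp2b-null males. Fbxo32 had 1097, 1100, 1159 and 1806 CPM at 10 mg/kg/day in hCYP2B6-Tg males, against 464, 521, 540 and 656 CPM at 1 mg/kg/day, and 1367, 1913 and 2214 CPM at 10 mg/kg/day in Cyp2b-null males, against 354, 594, 621 and 690 CPM at 1 mg/kg/day. In Cyp2b-null females it had 170, 314, 355 and 446 CPM at 10 mg/kg/day, against 339, 347, 413 and 505 CPM at 1 mg/kg/day. Males thus separated by dose without overlap and Cyp2b-null females did not. In hCYP2B6-Tg females Fbxo32 had 385, 1007, 1684 and 4676 CPM at 10 mg/kg/day, against 455, 474, 615 and 635 CPM at 1 mg/kg/day, so that 1 mouse of the high dose lay below the low-dose group. That spread recurred for Trim63, with 225, 586, 1093 and 5891 CPM at 10 mg/kg/day and 235, 444, 582 and 664 CPM at 1 mg/kg/day in the same females. Neither gene passed in the test of the difference between sexes or between genotypes.

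**Figure D4:**
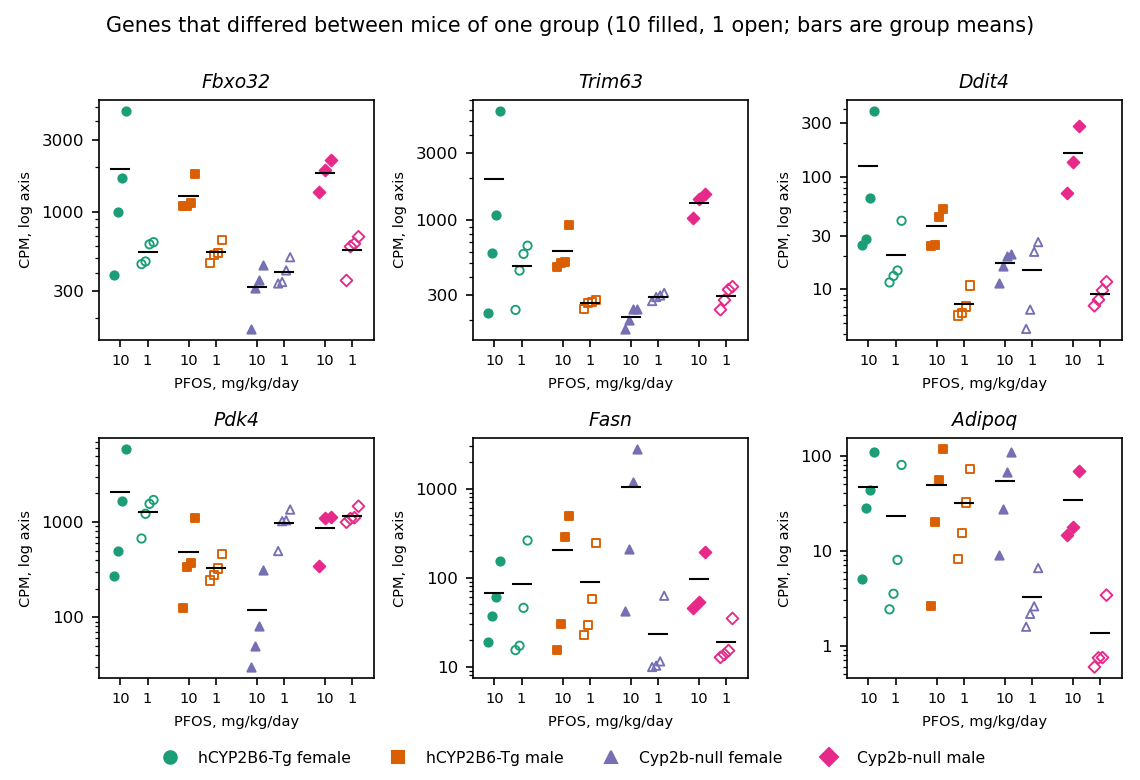
Level of 6 genes in each mouse (y axis, CPM on a log axis) by stratum and dose (x axis), filled at 10 and open at 1 mg/kg/day, ordered by value within a group, with bars at group means. Mice of 1 group differ by over 10-fold for Fasn and Pdk4, and Fbxo32 and Trim63 are high at 10 mg/kg/day in males and in some hCYP2B6-Tg females.

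Pdk4 in Cyp2b-null females had 29.99, 50.2, 80.3 and 315 CPM at 10 mg/kg/day, against 496, 1022, 1044 and 1353 CPM at 1 mg/kg/day (-3.04), whereas in hCYP2B6-Tg females it had 270, 492, 1664 and 5848 CPM at 10 mg/kg/day, against 672, 1221, 1555 and 1708 CPM at 1 mg/kg/day (0.68). Fasn in Cyp2b-null females had 41.6, 208, 1173 and 2784 CPM at 10 mg/kg/day and 9.89, 10.2, 11.4 and 62.5 CPM at 1 mg/kg/day (5.49). That stratum also had the highest adipocyte median, 2.38, against 0.48 in the females and 0.62 in the males of hCYP2B6-Tg and 1.08 in Cyp2b-null males. The part of fat cells in its Fasn value was not tested. Myh7 in hCYP2B6-Tg males had 43.9, 306, 1920 and 2521 CPM at 10 mg/kg/day and averaged 60.8 ± 71 CPM at 1 mg/kg/day (4.30). The lowest high-dose mouse of this group lay below that average and the other 3 lay above it.

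Tests of the difference between strata called few genes. Between the genotypes, hCYP2B6-Tg minus Cyp2b-null, no gene passed (0 of 15370, 0%, edgeR), with 1235 at an unadjusted p under 0.05 and 3 called by DESeq2. Between the sexes, males minus females, 32 genes passed (0.208%), 23 with a more positive change in males (0.15%) and 9 with a more negative one (0.0586%), and 1441 had an unadjusted p under 0.05. Arhgap26 differed between the sexes by 2.34 ± 0.28 on the log2 scale (adjusted p = 0.000101). In hCYP2B6-Tg males it had 31.7, 39.3, 49.9 and 61.4 CPM at 10 mg/kg/day and 4.95, 6.06, 6.54 and 8.51 CPM at 1 mg/kg/day, and in Cyp2b-null males 38.8, 39.5 and 85.0 CPM at 10 mg/kg/day and 4.17, 6.05, 6.11 and 7.002 CPM at 1 mg/kg/day. Females changed less, with 24.2, 37.6, 38.9 and 68.1 CPM at 10 mg/kg/day and 20.4, 21.8, 28.3 and 30.7 CPM at 1 mg/kg/day in hCYP2B6-Tg mice, and 14.8, 15.8, 17.2 and 19.4 CPM at 10 mg/kg/day and 9.33, 9.72, 12.1 and 12.6 CPM at 1 mg/kg/day in Cyp2b-null mice. At the low dose females thus lay above males.

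**Figure D5:**
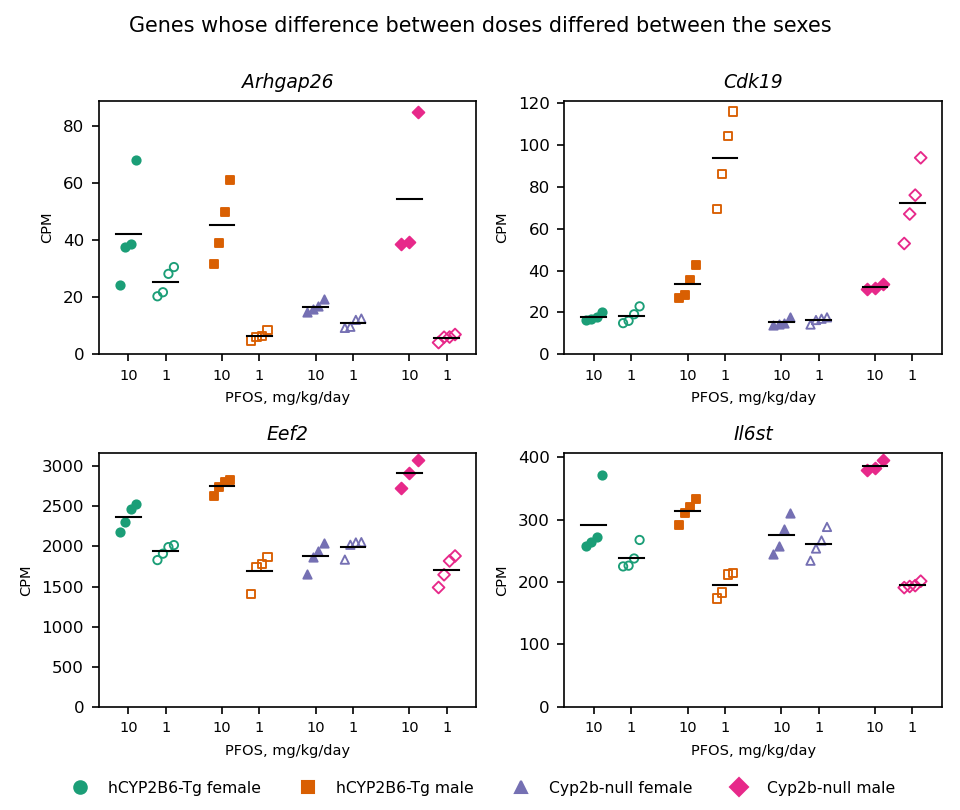
Level of 4 genes in each mouse (y axis, CPM) by stratum and dose (x axis), filled at 10 and open at 1 mg/kg/day, ordered by value within a group, with bars at group means. In both male strata the doses are separate for all 4 genes, and in females they lie closer together, as for Cdk19 with 14.1 to 20.4 CPM at 10 mg/kg/day and 14.3 to 22.9 CPM at 1 mg/kg/day.

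Cdk19, a kinase of the Mediator complex, showed the opposite sign (-1.27 ± 0.17, adjusted p = 0.000331). It had 26.9, 28.3, 35.7 and 42.7 CPM at 10 mg/kg/day and 69.3, 86.0, 104 and 115.8 CPM at 1 mg/kg/day in hCYP2B6-Tg males, with a log2 fold change of -1.49 there and -1.17 in Cyp2b-null males, against -0.03 in the hCYP2B6-Tg and -0.10 in the Cyp2b-null females. Elongation factor Eef2 (0.63 ± 0.10) and the interleukin-6 signal transducer Il6st (0.65 ± 0.11) had more positive changes in males. Il6st had 380, 382 and 396 CPM at 10 mg/kg/day and 191, 193, 194 and 201.2 CPM at 1 mg/kg/day in Cyp2b-null males, and 245, 257, 285 and 310 CPM at 10 mg/kg/day and 234, 254, 266 and 288 CPM at 1 mg/kg/day in Cyp2b-null females. The doses were apart in the males and interleaved in these females. The clock gene Bhlhe41 fell more in males (-1.14 ± 0.22, adjusted p = 0.0145). Others among the 32 were glutamine synthetase Glul (1.66), the ubiquitin ligase adaptor Klhl38 (1.41), Gstm2 (0.96), Acadsb (0.50), Mars (0.53) and Qars (0.35) with more positive changes in males, and Mkl1 (-1.58), Vasp (-1.13), Cbr2 (-0.99) and Glrx (-0.73) with more negative ones. Without the libraries that stand apart 10 genes passed this test, and without mouse 2 of the hCYP2B6-Tg females at 10 mg/kg/day 244 did.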

How the data were processed

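Gastrocnemius messenger RNA of 48 mice was sequenced, and the deposited table holds the authors' raw counts of reads per gene for 54532 genes. The submitters' processing notes name HISAT2 and GRCm39. The coordinates in the table are those of GRCm38: 98.3% of the gene IDs shared with GENCODE vM21 have the same start and end. The sources used here give neither the counting program nor its annotation or use of strand. Per the labels, RNA was taken with TRIzol, in a text that names liver.

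The 31 libraries at 10 and 1 mg/kg/day were compared in edgeR 4.0.16 (R 4.3.3) with filterByExpr, TMM scaling and quasi-likelihood tests, as dose with stratum as a term. A fit of 8 groups gave the strata and the differences between sexes and genotypes. Tests were two-sided, p-values were adjusted by Benjamini-Hochberg over all genes tested, and the SE is the fold change over the root of F. P-values measure the spread between mice, 1 library each. No 2 libraries of a group were duplicates (chi-square over df of 7.85 or more in 45 pairs). The members and gene lists were chosen with earlier results of these data known. Named genes were the 12 largest rises and falls among genes that passed, had a mean log2 CPM of 1 or more and kept 1 sign in all strata, up to 3 per list by smallest p, 4 per difference between strata and a fixed set. A gene this rule picked is not reported here. Any other member named from a list was chosen after its values were seen. List medians are over the genes tested. Library measures were tested by 100000 permutations within strata. On simulated counts of 15014 genes the fit recovered 76% of 1.5-fold and 98% of 2-fold changes. There 50 genes with a mean log2 CPM of 1 or more were changed at each fold, some up and some down. The simulation had no stratum effects and the same spread at both doses. In the data 44.8% of genes passed and spread was larger at 10 mg/kg/day, so these rates do not carry over. Library totals, other filters, DESeq2 1.42.0, limma 3.58.1, a replicate block, an adipocyte covariate and left-out libraries were tried. Replicate numbers were given in accession order and do not pair mice.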

Additional observations from a re-analysis of the deposited data

Results flagged for a closer look

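Groups of 4 were read for a mouse whose gap to the next was over 0.829 of the range. Independent normal values give this in about 1 in 20 groups. That rate does not apply here, since CPM were not put on a log scale and many genes were read in the same mice. Where the other 3 mice are at 0, as for Glycam1, a single count is enough. Single mice stood far from the other 3 of their group in 28 of 229 groups of 4 (12.2%). In muscle genes these were Ndufs1 at 278 CPM in mouse 1 of the hCYP2B6-Tg females at 1 mg/kg/day (the others 372 to 387), and Actc1 at 2865 CPM in mouse 3 of that group (561 to 866) and at 1309 CPM in mouse 3 of the Cyp2b-null males at 1 mg/kg/day (140 to 257). Col15a1 stood at 12.4 CPM in mouse 4 of the hCYP2B6-Tg females at 10 mg/kg/day (6.9 to 7.56).

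Mouse 2 of the hCYP2B6-Tg females at 10 mg/kg/day recurred, with Akt1 at 130 CPM (89.9 to 93.3), Trim63 at 5891 CPM (225 to 1093), Ddit4 at 382 CPM (24.5 to 64.3) and Il6st at 372 CPM (258 to 271). Among hCYP2B6-Tg males given 10 mg/kg/day, mouse 4 had Fbxo32 at 1806 CPM (1097 to 1159) and Trim63 at 937 CPM (473 to 513). Mouse 2 of the hCYP2B6-Tg females at 1 mg/kg/day had Depp1 at 25.5 CPM (8.47 to 9.54) and Ddit4 at 40.6 CPM (11.5 to 14.7).

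In several groups at 1 mg/kg/day fat genes were higher in 1 mouse than in the others of its group. Mouse 1 of the hCYP2B6-Tg females had Fasn at 261 CPM, Cfd at 692 CPM and Adipoq at 79.6 CPM. Fasn was at 243 CPM in mouse 1 of the hCYP2B6-Tg males, 62.5 CPM in mouse 3 of the Cyp2b-null females and 34.7 CPM in mouse 2 of the Cyp2b-null males. Adipoq was at 3.4 CPM in mouse 4 of the last group (0.598 to 0.75). That level is near the median of all mice at 1 mg/kg/day, 3.46 CPM.

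Glycam1 was at 41.9 CPM in mouse 1 of the hCYP2B6-Tg females, 4.03 CPM in mouse 3 of the hCYP2B6-Tg males and 40.5 CPM in mouse 3 of the Cyp2b-null females, all given 10 mg/kg/day. In mice given 1 mg/kg/day it was at 0.149 CPM in mouse 3 of the hCYP2B6-Tg males and 0.0676 CPM in mouse 4 of the Cyp2b-null females, the others of each group at 0 or 0.0494 CPM or less. Cxcl13 was at 8.05 CPM in mouse 3 of the hCYP2B6-Tg males given 10 mg/kg/day and 0.697 CPM in mouse 4 of those given 1 mg/kg/day. Eef2 was at 1836 CPM in mouse 4 of the Cyp2b-null females at 1 mg/kg/day (2021 to 2054). The total of 12401453 counts in mouse 3 of the hCYP2B6-Tg females at 1 mg/kg/day was below the others of its group.

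Among the named genes 5 differed between males and females in their dose step, by the edgeR test of the difference: Arhgap26 (2.34), Cdk19 (-1.27), Bhlhe41 (-1.14), Il6st (0.652) and Eef2 (0.628), as log2 fold changes of males minus females.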

How the results depend on the processing

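The count of genes passed between the doses was 5273 to 8514 over all settings tried, and 6455 to 7143 with any 1 library left out. Counts within strata were less firm. With 1 library left out they were 2089 to 3971 in hCYP2B6-Tg females, 896 to 2635 in hCYP2B6-Tg males, 206 to 2097 in Cyp2b-null females and 1700 to 3621 in Cyp2b-null males, and 25 to 244 for the sex difference, 0 to 1 for the genotype difference and 0 to 1 for 1 against 0 mg/kg/day. The differences in library measures kept their sign: -2.508 to -2.227 points for the mitochondrial share, -5.372 to -4.636 points for the 20 most abundant genes, 791.3 to 1034 genes detected and 539000 to 1128000 total counts. In Cyp2b-null females the count was 3558 on library totals, 576 with no filter, 2884 with limma voom, 231 without the libraries that stand apart and 146 with the adipocyte covariate. Without those libraries it was 852 in hCYP2B6-Tg males, 1320 in Cyp2b-null males and 10 for the sex difference, and with no filter 1279 in hCYP2B6-Tg males. The sex difference had 60 genes higher and 42 lower in DESeq2 (1.0e+02 in all), 343 in limma voom and 61 with all 48 libraries, the genotype difference 3 in DESeq2 and 1 with the covariate, and 1 against 0 mg/kg/day 1 in DESeq2. With the replicate block 6068 genes passed (5959 shared), 502 in Cyp2b-null females and 18 for the sex difference. The replicate numbers do not pair the mice: 3 of 15 pairs correlated over 0.1 (-0.303 to 0.159), and 3 correlated best with their own number. Signs turned on library totals for Angptl4 (0.0214) and the medians of satellite cell markers (0.0403), matrix genes (0.00728), PPAR targets (0.0221), branched-chain amino acid (0.120), cholesterol (0.18) and heat shock (0.18) genes. Without the libraries that stand apart they turned for lymph node markers (-0.183) and PPAR targets (0.0833), with the covariate for Pdk4 (0.165), Asns (-0.0587), liver markers (-0.221) and smooth muscle markers (-0.0636), and without mouse 2 of the Cyp2b-null males at 1 mg/kg/day for PPAR targets (-0.227 to 0.0372 with any 1 library left out). In 7327 comparisons of 171 named genes over the settings 7213 kept direction and call and 3 turned. The causes were not tested.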
